A study of Drosophila melanogaster with 12 samples.

Results

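Transcripts of 10 potassium channel genes were followed in late Drosophila melanogaster embryos that lacked the neuronal RNA-binding protein ELAV, lacked both ELAV and its relative FNE, or carried the WDd allele of elav. The genes were chosen by name, as the Shaker family (Sh, Shab, Shal and Shaw), the eag family (eag, sei and Elk), the calcium-activated channels slo and SK, and KCNQ. Earlier results of these data were known when the genes were chosen. All 10 were found among the 17561 genes of the count table, and all 10 passed the filter on low counts. Each of 4 groups had 3 libraries of poly(A) RNA from embryos aged 20 to 24 h. The control, called WT in the labels, carried elav e5 over the FM7 balancer X chromosome, so it was not free of an elav mutation (the table's header names this allele elav null). The other groups were elav null, elav null with fne null (the double null), and elav WDd. Mutant embryos were recognised by the missing GFP of the balancer. What the WDd allele changes is not described. Whether replicates came from separate collections is not stated, so the tests measure only the spread between these libraries.

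Voltage-gated potassium channels open when a neuron or muscle fibre depolarises, and the outward current ends the action potential and sets how soon the next can follow. In flies the Shaker and Shal proteins carry fast transient currents, Shab and Shaw carry delayed or sustained ones, and eag-family channels add currents that shape repetitive firing. The slo and SK proteins open when calcium enters the cell, and KCNQ channels carry a slowly activating current. ELAV and FNE bind transcripts in neurons and direct their splicing and poly(A) site choice. Several of these channels, among them Sh, Shab and slo, also work in fly muscle.

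Library totals ranged from 22491041 to 97043662 counts, and counts of the 10 genes from 103 to 29963 per library. Levels are given as CPM, counts scaled to a fixed library total with TMM factors. elav itself stood at 68.6 to 160.5 CPM in WT and 146 to 191 in WDd, and at 3.98 to 6.27 in elav null and 4.99 to 6.12 in the double null. fne stood at 19.6 to 30.6 CPM in the double null. Among the elav null libraries fne stood at 173 and 243 CPM in replicates 1 and 2, and at 36.2 CPM in the one labelled replicate 3. That library, elav null replicate 1 and double null replicate 2 detected 10526 to 11863 genes after thinning to 2e+07 counts, and the other 9 libraries 13267 to 15579. Values without these libraries are given where they differ. The summed level of 13 muscle genes was 41620 to 48150 CPM in WT and 46870 to 49940 in WDd, but 2638 to 17580 in elav null and 2581 to 4953 in the double null. Summed levels of 9 neural progenitor genes were 79.1 to 140.2 CPM in WT, 100.9 to 127.3 in WDd, 125.1 to 224.8 in elav null and 224.3 to 292.9 in the double null, and those of 9 glial genes 1133 to 1248, 1144 to 1325, 1419 to 1535 and 1256 to 1538 CPM in the same order. Every null library thus exceeded every WT library in the glial sum. Of the 9 glial genes, 3 were called higher in elav null and 0 lower, against 5.99% and 11.7% of all genes. The double null had 2 called higher and 1 lower, against 6.68% and 14.7% of all genes. Not every glial gene rose: 2 of the 9 had log2 fold changes below 0 in elav null, and 4 had them in the double null. Mitochondrial rRNA took 2.14% to 3.54% of counts in WT, 1.95% to 3.61% in WDd, 6.2% to 8.55% in the double null, and 0.65%, 9.54% and 10.1% in elav null replicates 1, 2 and 3. Eggshell and yolk genes summed to 15.9 to 670.0 CPM in elav null and to at most 8.40 elsewhere. No muscle, progenitor or glial gene of these lists was at 0 in any library. Fewer cells of a type and less RNA per cell cannot be told apart in such bulk samples, and the part of these cell types and of the rRNA share in the results below was not tested.

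In the dm6 assembly 3 of the 10 genes lie on the X chromosome. Sh (CG12348) lies at X: 17924307 to 18063247 on the minus strand, eag (CG10952) at X: 14955477 to 15009989 and SK (CG10706) at X: 5340236 to 5405138, both on the plus strand. Shab (CG43128) lies at 3L: 2895017 to 2959579 on the plus strand and Shal (CG9262) at 3L: 19566851 to 19584568 on the minus strand. Shaw (CG2822) lies at 2L: 3718185 to 3729145 and slo (CG10693) at 3R: 24662491 to 24711595, both on the plus strand. On 2R lie sei (CG3182, 24047411 to 24053035, plus strand), Elk (CG5076, 17873939 to 17926695, plus strand) and KCNQ (CG33135, 10145897 to 10192394, minus strand). The genes span 5.6 kb (sei) to 138.9 kb (Sh) and have 2 annotated transcripts (Elk) to 23 (slo), which the counts per gene do not separate. Exons of genes on the opposite strand cover 14.58% of the exon length of sei and 27.43% of that of KCNQ. The strand setting of the counting is not given in the sources used here, so reads of those partners may be counted in sei and KCNQ. The exons of the other 8 genes overlap no other annotated exon.

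Per kb of exon, Shab, slo, Shaw and Shal stood highest in WT and the 3 eag-family genes lowest. Mean levels in WT were 25.7 ± 12.3 CPM per kb for Shab, 25.5 ± 10.01 for slo, 23.1 ± 7.47 for Shaw and 21.4 ± 3.64 for Shal (SD, n = 3). KCNQ followed at 16.2 ± 2.27, SK at 14.2 ± 6.14 and Sh at 9.20 ± 4.604 CPM per kb. eag stood at 5.84 ± 3.22, Elk at 3.76 ± 1.46 and sei at 3.34 ± 0.511. Of neighbours in this order, Shal and KCNQ alone had ranges that did not overlap between libraries. The exon length counts every annotated exon once, which lowers the value of a gene with many alternative exons such as Sh. WDd kept Shab, slo, Shaw and Shal as its 4 highest genes, led by slo at 30.1 ± 4.58 CPM per kb. The double null order had Shab eighth at 3.62 ± 0.427 CPM per kb and Shal sixth at 6.48 ± 0.276, while slo (13.1 ± 0.862) and Shaw (13.04 ± 2.30) led.

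**Figure D1:**
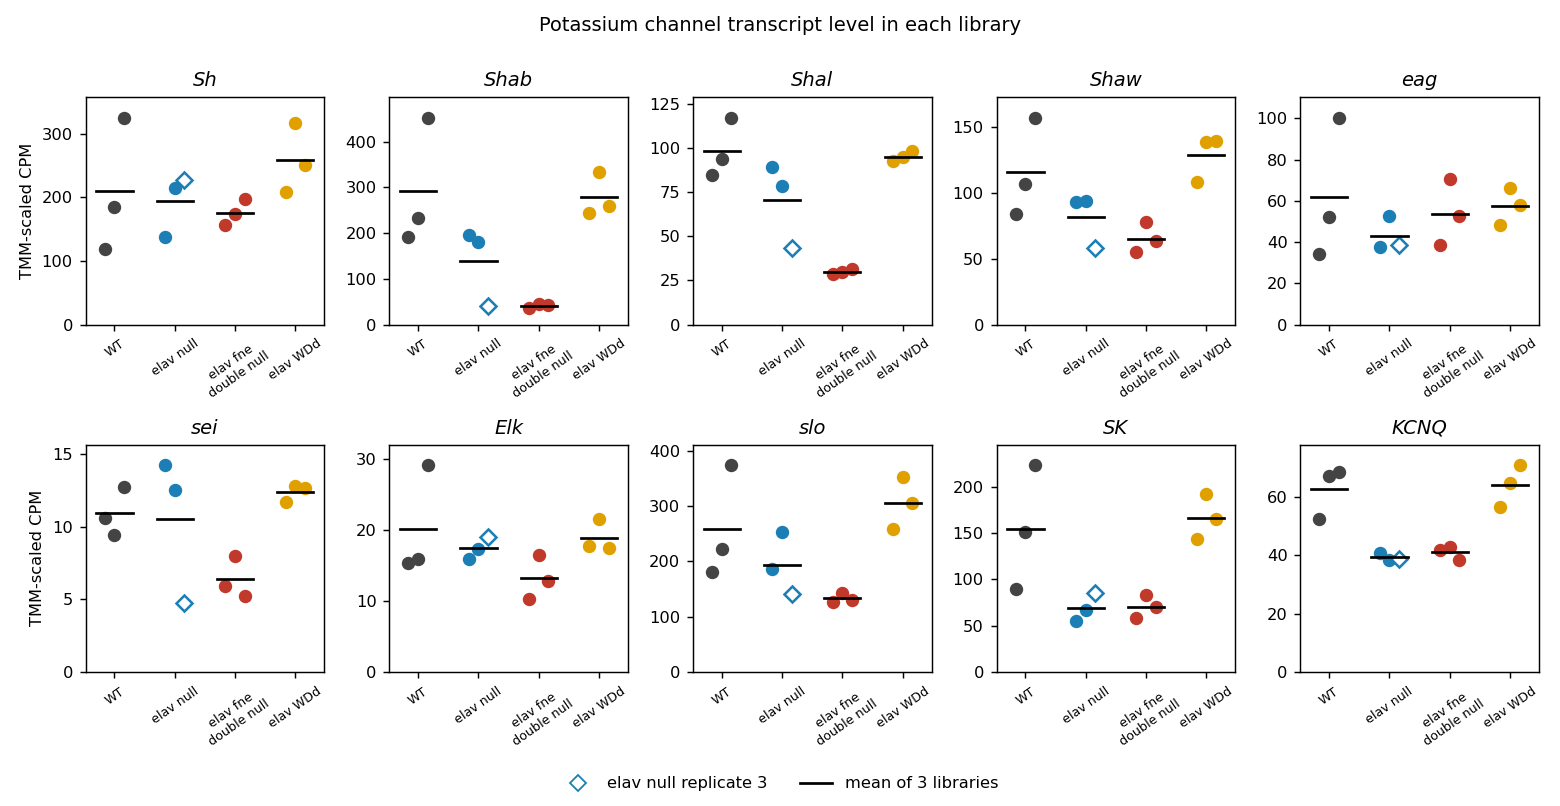
Level of each of the 10 genes in every library, as TMM-scaled CPM on linear axes that start at 0. Points are libraries, bars the mean of 3, and the open diamond is the elav null library labelled replicate 3. Shab lies at 35.6 to 44.3 CPM in the double null and at 192 CPM or more in WT, while Sh in WT overlaps each mutant group.

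Each mutant was compared with WT to see which channel transcripts differed, and these comparisons share the WT libraries. In elav null 2 of the 10 genes were lower (SK and KCNQ) and none was higher, where 11.7% of the 14031 genes tested were lower and 5.99% higher. In the double null 6 were lower (Shab, Shal, Shaw, slo, SK and KCNQ) and none was higher, against 14.7% lower and 6.68% higher of all genes. In WDd none was called, by edgeR or DESeq2 or at an unadjusted p under 0.05 (4.59% of all genes), where 0.135% of all genes were lower and 0.0641% higher in edgeR. All 10 fold changes were below 0 in both null groups, with medians of −0.49 and −0.80 on the log2 scale, against −0.11 and −0.03 over all genes. The signs of 2 genes depended on scaling in the double null, where Sh and eag stood at 0.32 and 0.35 when libraries were scaled to pan-neuronal genes. In elav null Sh stood at 0.09 under that scaling and sei at 0.03 with RLE factors. Of all genes called in the double null, 31.3% were higher with TMM, 42.4% with RLE factors and 54.5% with pan-neuronal scaling. In WDd the median was 0.07, and −0.03 over all genes. A gene was called at a Benjamini-Hochberg adjusted p under 0.05 in edgeR's quasi-likelihood test over all genes. Groups did not overlap, with the mutant lower, for 2 of the 10 in elav null (21% of all genes) and 7 in the double null (25.4%), and for none in either direction in WDd (7.6% lower, 6.69% higher). The elav null count was 0 when only the 6 libraries compared were fitted, where 6.58% of genes were lower. The double null count was 4 without WT replicate 3, 3 without double null replicate 1 and 3 without double null replicate 3. With single libraries left out, 1436 to 2519 of all genes were lower in the double null, against 2061 with all libraries. The count was 7 without the 3 libraries with the fewest detected genes, where 16.7% of genes were lower.

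**Figure D2:**
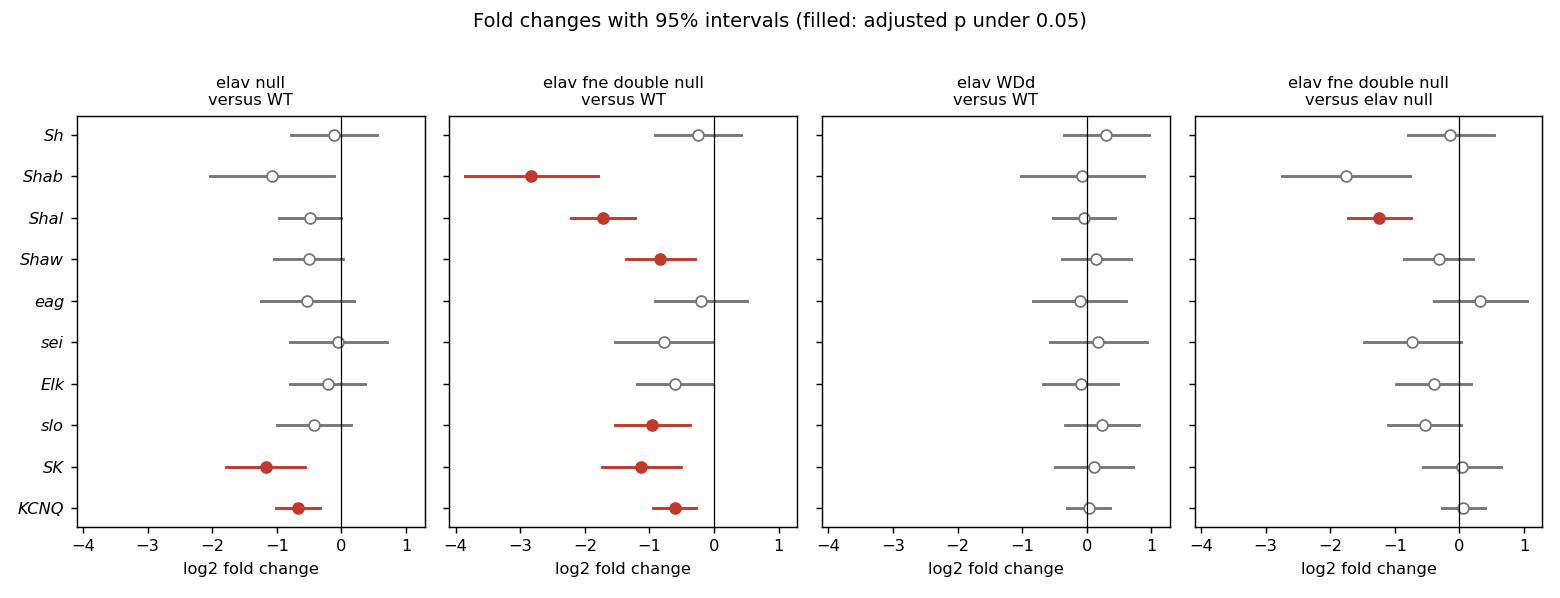
Log2 fold change (horizontal axis) of each gene in 4 comparisons, with its 95% interval. Filled red points passed an adjusted p under 0.05 in edgeR. SK and KCNQ are filled in both null comparisons with WT, Shab and Shal lie farthest below 0 in the double null, and no point is filled in WDd.

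Among the Shaker family, Shab had the largest difference of the 10 genes in the double null. Its levels were 192, 232 and 452 CPM in WT, 245, 333 and 259 CPM in WDd, and 35.6, 44.3 and 43.6 CPM in the double null. In elav null they were 195 and 179.9 CPM in replicates 1 and 2 and 40.4 CPM in the library labelled replicate 3, which lies within the double null range. The double null libraries all lay below every WT library, and elav null replicates 1 and 2 lay near the lowest WT library. Shab, which encodes the main delayed rectifier of fly neurons, fell 7.10-fold when both genes were lost (log2 difference −2.83 ± 0.48 SE, edgeR adjusted p = 0.000742). In elav null it did not pass the test (−1.08 ± 0.45, 95% interval −2.04 to −0.11, edgeR adjusted p = 0.125). Without the elav null library labelled replicate 3 the log2 fold change was −0.63 ± 0.30.

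Shal, whose channel carries the transient current of neuronal cell bodies and dendrites, stood at 84.4, 93.9 and 117 CPM in WT and at 28.7, 29.7 and 31.2 CPM in the double null. It stood at 92.4, 94.6 and 98.1 CPM in WDd, inside the WT range. In elav null it stood at 89.0 and 78.6 CPM in replicates 1 and 2 and at 43.2 CPM in the library labelled replicate 3, which is above the double null range and below every WT library. Shal fell 3.30-fold in the double null (−1.72 ± 0.23, edgeR adjusted p = 0.000139). Its value in elav null was −0.48 ± 0.22 (edgeR adjusted p = 0.167). The calls of Shab and Shal in the double null held under all 22 alternatives, with log2 fold changes of −3.03 to −2.28 and −1.80 to −1.27.

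Shaw, which encodes a channel with low voltage dependence, stood at 83.6, 106 and 157 CPM in WT. It stood at 55.0, 77.6 and 63.0 CPM in the double null, so the groups were apart by a small margin. In elav null it stood at 93.0, 93.3 and 57.9 CPM, and in WDd at 108, 138 and 139 CPM. Shaw was called lower in the double null (−0.83 ± 0.25, edgeR adjusted p = 0.0296). That call was lost without WT replicate 3 (−0.53, edgeR adjusted p = 0.14), without double null replicate 1 (−0.70, 0.133) and without double null replicate 3 (−0.79, 0.0944). It was also lost with RLE factors (−0.70, edgeR adjusted p = 0.0641), library totals (−0.73, 0.0694), pan-neuronal scaling (−0.34, 0.438) and a 1.2-fold minimum (0.0599).

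Sh, the founding Shaker gene of the fast A-type current, was not called in any comparison. Its levels were 119, 185 and 325 CPM in WT, 138, 215 and 227 CPM in elav null, 208, 317 and 252 CPM in WDd, and 157, 174 and 197 CPM in the double null. The WT libraries spanned all the elav null, double null and WDd values. The 95% interval of its log2 fold change was −0.78 to 0.55 in elav null and −0.92 to 0.41 in the double null. Both intervals include 0, so neither a fall nor a rise of Sh within those bounds was excluded.

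None of the 3 eag-family genes was called in any of the 6 comparisons. eag, which encodes the founding channel of the ether-a-go-go family, stood at 34.0, 52.0 and 100.2 CPM in WT. It stood at 37.8, 52.9 and 38.4 CPM in elav null, 48.2, 66.3 and 57.8 CPM in WDd, and 38.6, 70.5 and 52.5 CPM in the double null. All mutant values lay within the WT range. Elk, the fly Elk-type channel gene, stood at 15.3, 15.9 and 29.1 CPM in WT and at 10.3, 16.5 and 12.9 CPM in the double null (−0.60 ± 0.27, edgeR adjusted p = 0.14). It stood at 15.98 to 18.99 CPM in elav null and 17.4 to 21.5 CPM in WDd. sei, the seizure gene, encodes the fly relative of the human ERG channel. Its levels were 10.6, 9.46 and 12.8 CPM in WT, 11.7 to 12.8 CPM in WDd, and 5.89, 7.98 and 5.25 CPM in the double null. In elav null it stood at 14.2 and 12.5 CPM in replicates 1 and 2 and at 4.78 CPM in the library labelled replicate 3. The double null and WT libraries of sei did not overlap, and the test was not passed (−0.78 ± 0.35, edgeR adjusted p = 0.142). sei was called lower in the double null without the elav null library labelled replicate 3 (−0.76, edgeR adjusted p = 0.019), and without the 3 libraries with the fewest detected genes (−0.95, 0.00774).

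SK and KCNQ were lower in both null groups, at similar levels. SK, the small-conductance channel opened by calcium through calmodulin, stood at 89.7, 152 and 223 CPM in WT and at 143, 192 and 165 CPM in WDd. It stood at 54.8, 66.7 and 84.9 CPM in elav null and at 58.1, 83.0 and 70.7 CPM in the double null. All 6 libraries of these 2 groups lay below the lowest WT library, which was only slightly higher than the nearest of them. SK fell by a log2 of 1.17 ± 0.28 in elav null (edgeR adjusted p = 0.0108), to 44.4% of WT with a 95% interval of 29.1% to 67.7%. In the double null SK stood a log2 of 1.13 ± 0.28 below WT (edgeR adjusted p = 0.0105). KCNQ, relative of the mammalian channels of the M-current, stood at 52.5, 67.1 and 68.3 CPM in WT and 56.4, 64.8 and 70.7 CPM in WDd. It stood at 40.8, 38.2 and 38.7 CPM in elav null and at 41.6, 42.9 and 38.3 CPM in the double null. The spread of KCNQ within each null group was small, with an SD of 1.39 and 2.37 CPM. KCNQ differed from WT by −0.67 ± 0.16 (elav null) and −0.61 ± 0.15 (double null) on the log2 scale (edgeR adjusted p = 0.00813 and 0.0115). Both elav null calls held without the library labelled replicate 3, where 11.1% of all genes were lower (SK −1.34, edgeR adjusted p = 0.00871; KCNQ −0.65, 0.0153). SK lost its double null call without double null replicate 1 (−0.99, edgeR adjusted p = 0.059), and KCNQ without double null replicate 3 (−0.55, 0.0552).

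slo, the large-conductance channel gated by calcium and voltage, was called lower in the double null and not in elav null. Its levels were 180.1, 223 and 374 CPM in WT and 185, 254 and 142 CPM in elav null, where it was not called (−0.42 ± 0.26, edgeR adjusted p = 0.326). In the double null they were 126, 143 and 130.9 CPM, all below the lowest WT library, and in WDd 259, 352 and 305 CPM. slo was called lower in the double null (−0.96 ± 0.27, edgeR adjusted p = 0.0195). The call was lost without WT replicate 3 (−0.58, edgeR adjusted p = 0.0974) and without double null replicate 1, 2 or 3 (−0.90, −0.98 and −0.93; 0.0801, 0.055 and 0.0687).

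The double null was compared with elav null to see what differed when fne was lost as well. Shal alone was called, and lower, where 0.185% of all genes were lower and 0.0428% higher. Its level was 42.4% of that in elav null (95% interval 30.2% to 59.5%; −1.24 ± 0.23, edgeR adjusted p = 0.0488). That p lay just under the threshold and the call was lost under 17 of 21 alternatives, with edgeR adjusted p up to 0.489. Shab did not pass (−1.75 ± 0.46, edgeR adjusted p = 0.12). SK and KCNQ had log2 differences near 0, of 0.04 (95% interval −0.56 to 0.64) and 0.06 (−0.27 to 0.39). Leaving out the elav null library labelled replicate 3 gave 3 lower genes, where 4.94% of all genes were then lower and 2.18% higher. These were Shab (−2.18 ± 0.29, edgeR adjusted p = 0.000651), Shal (−1.48 ± 0.16, 0.000102) and sei (−1.06 ± 0.24, 0.0161). SK (0.22) and KCNQ (0.06) were not called in that fit. Of the 10 genes, 5 stood lower in that library than in elav null replicates 1 and 2 (Shab, Shal, Shaw, sei and slo), 3 stood higher (Sh, Elk and SK) and 2 lay between them.

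WDd was compared with WT, elav null and the double null. The WDd levels of all 10 genes overlapped those of WT. The 95% interval of the log2 fold change against WT lay within −1 and 1 for 9 of the 10 genes, and for Shab it ran from −1.02 to 0.89. The narrowest interval was that of KCNQ, 81.2% to 129% of WT. Against elav null, SK (1.28 ± 0.28) and KCNQ (0.70 ± 0.16) were higher in WDd (edgeR adjusted p = 0.00672 and 0.00644), where 11% of all genes were higher and 5.83% lower. Against the double null 6 were higher in WDd, where 14.3% of all genes were higher and 6.6% lower. They were Shab (2.76 ± 0.47, edgeR adjusted p = 0.00096), Shal (1.67 ± 0.23, 0.000182), slo (1.19 ± 0.27, 0.00562), SK (1.24 ± 0.28, 0.00641), Shaw (0.98 ± 0.25, 0.0124) and KCNQ (0.64 ± 0.15, 0.0089). This comparison and that of the double null with WT share the double null libraries.

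The WT libraries differed among themselves along with general neuronal genes. WT replicate 3 was the highest WT library for all 10 channel genes, and WT replicate 1 the lowest for 9. The mean log2 level of 12 pan-neuronal genes, such as the synaptic genes nSyb and brp, stood 0.52 below the WT mean in replicate 1 and 0.54 above it in replicate 3. It was 0.62, 0.27 and 0.48 below the WT mean in the double null libraries, and 0.03 above, 0.29 above and 0.45 below it in the elav null libraries. None of the 12 was at 0 in any library. Of the 12, 3 were themselves called lower in the double null (14.7% of all genes) and 1 in elav null (11.7%), and none was higher. Their log2 fold changes in the double null ran from −1.42 to 0.25, with a median of −0.43. The 12 are thus not an unchanged reference. When each channel was taken as a ratio to these genes, the median SD within WT was 0.22 on the log2 scale, against 0.53 for the CPM values, and it was smaller for 7 of the 10. As ratios, Shab stood 2.27 ± 0.10 and Shal 1.25 ± 0.16 below WT in the double null on the log2 scale (SD, n = 3). Scaling all libraries to the pan-neuronal genes left these 2 of the 6 calls in the double null (−2.28 and −1.27, edgeR adjusted p = 0.000635 and 0.00707), where 4.36% of all genes were lower. Under that scaling SK and KCNQ were not called in elav null (−0.96 and −0.62, edgeR adjusted p = 0.0612 and 0.237) or in the double null (−0.60 and −0.17, 0.235 and 0.767). In elav null replicates 1 and 2 the SK ratio was 1.43 and 1.41 below the WT mean, and in the library labelled replicate 3 it was 0.32 below. The same scaling moved the median of all genes in the double null from −0.03 to 0.38. A new scaling shifts all genes nearly alike, so the channel median relative to that of all genes could hardly change (−0.73, and −0.77 with TMM). That difference therefore does not tell which scaling is right.

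The makeup of the channel transcripts was described by the share of each gene in the summed CPM per kb of the 10, which does not depend on the scaling of libraries. The sum itself was 148 ± 50.7 CPM per kb in WT, 157 ± 18.8 in WDd, 70.5 ± 7.69 in the double null and 98.2 ± 20.7 in elav null. Shab made up 15.2% to 19.5% of the sum in WT, 14.4% to 16.8% in WDd and 4.97% to 5.48% in the double null. In elav null it made up 16.2% and 13.9% in replicates 1 and 2, and 4.75% in the library labelled replicate 3. Shal made up 12.4% to 17.3% in WT, 12.5% to 18.3% in elav null and 8.21% to 9.87% in the double null. The shares of Sh, eag and KCNQ were higher in the double null than in every WT library, at 9.72% to 12.3%, 5.75% to 8.45% and 14.1% to 17.0%. In WT they were 4.93% to 6.97%, 3.02% to 4.61% and 8.62% to 12.9%, and in elav null 5.71% to 13.3%, 3.36% to 4.82% and 8.64% to 13.4%. The double null shares of Shaw (17.4% to 19.8%) and Elk (3.06% to 3.94%) were also above every WT library (15.3% to 15.9% and 2.22% to 2.7%). In elav null the shares of Shaw and Elk were 15.5% to 17.6% and 2.82% to 4.74%, so Elk lay above WT there too. A share rises when others fall, so these values give the mix and not a change of a single gene.

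**Figure D3:**
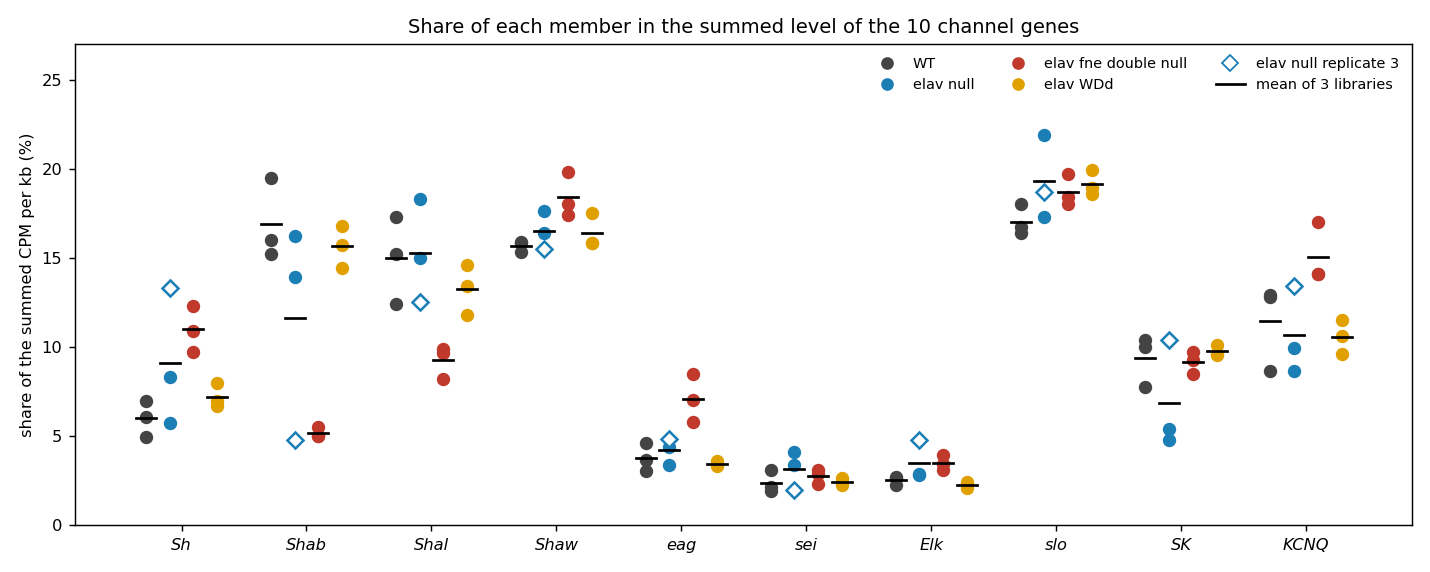
Share of each gene in the summed CPM per kb of the 10 genes (vertical axis, percent) in every library, by group. Bars are means of 3 libraries and the open diamond is the elav null library labelled replicate 3. Shab lies at 4.97% to 5.48% in the double null and at 15.2% or more in WT.

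Across the 12 libraries the 10 genes varied together to different degrees. Pearson correlations of log2 CPM between pairs of them ranged from 0.18 (Sh and sei) to 0.97 (Shab and Shal), with a median of 0.71 over 45 pairs. The libraries share their groups, their depth and the spread within WT, so these are descriptions. Among 8423 other genes averaging 5 CPM or more, the profile most like Sh was that of para (r = 0.961), the voltage-gated sodium channel gene, followed by CG34347 (0.961). The profile most like Shab was that of Vmat (0.989), the vesicular monoamine transporter gene, followed by nAChRalpha4 (0.988), a nicotinic receptor subunit gene. Shal was closest to Teh4 (0.99), one of the auxiliary genes of the sodium channel, and to MFS3 (0.988), and eag to Octalpha2R (0.956) and to dysc (0.927), whose product binds Slo. Shaw was closest to Pkc98E (0.985) and rdgC (0.98), and slo to Rbp6 (0.977) and CG45002 (0.972). SK was closest to tyn (0.977) and dom (0.976), and KCNQ to Usp2 (0.981) and qkr58E-1 (0.976). For sei the nearest were Ppcs (0.974) and CG9395 (0.974), and for Elk norpA (0.914) and rk (0.912).

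Among 16 other potassium channel genes, which include two-pore and inward rectifier channels and the relatives Shawl and SLO2, calls were made in both directions. In elav null 4 were lower and 2 higher (11.7% and 5.99% of all genes), and with both genes lost 4 were lower and 1 higher (14.7% and 6.68%). Over all alternatives the lower counts were 4 or 5, while the higher counts ran from 0 to 4 (elav null) and 0 to 2 (double null). The median log2 fold change of the 16 was −0.10 and −0.57. In WDd none was called by edgeR or DESeq2, and 2 had an unadjusted p under 0.05 (4.59% of all genes). Of all genes 0.135% were lower and 0.0641% higher in WDd in edgeR. The 4 lower genes were galene, sand, Irk2 and CG34396 in both comparisons. galene, a two-pore channel gene, stood at 38.2, 38.8 and 41.9 CPM in WT and 34.3, 38.4 and 40.0 CPM in WDd. It stood at 5.77, 4.89 and 5.06 CPM in elav null and 2.31, 2.40 and 3.03 CPM in the double null, with no overlap between these levels and WT. It fell 7.55-fold (elav null) and 15.4-fold (double null; edgeR adjusted p = 1.61e-06 and 4.92e-07), and was lower in the double null than in elav null (−1.03 ± 0.19, edgeR adjusted p = 0.0479, where 0.185% of all genes were lower). That p lay just under the threshold, and the list's count of 1 lower gene between the null groups ran from 0 to 4 and moved under 19 of 21 alternatives. sand, a two-pore channel gene that acts in sleep control, had a mean of 31.8 ± 2.41 CPM in WT, and fell to 10.98 ± 5.80 (elav null) and 3.88 ± 0.839 (double null) (edgeR adjusted p = 0.00333 and 3.01e-05). Irk2, an inward rectifier gene, fell from 168.9 ± 17.1 CPM to 44.5 ± 17.5 and 28.7 ± 5.15 (edgeR adjusted p = 0.000121 and 1.58e-05). CG34396, a gene of the list known only by its identifier, fell from 62.8 ± 7.54 CPM to 10.6 ± 7.01 and 5.37 ± 1.53 (edgeR adjusted p = 0.000292 and 3.06e-05). In elav null Irk3, another inward rectifier gene, rose (0.98 ± 0.20, edgeR adjusted p = 0.00331) and so did the leak channel gene Ork1 (1.26 ± 0.33, 0.0175). Ork1 stood at 48.6 CPM in the elav null library labelled replicate 3, and at 18.5 and 18.1 CPM in replicates 1 and 2. No WT library exceeded 12.7 CPM for Ork1. The WDd libraries, where it was not called, held 17.5 to 25.3 CPM, and the double null libraries 16.9 to 17.5. An Ork1 level above that of WT was thus not particular to elav null. CG42594 was called higher in the double null (0.85 ± 0.28, edgeR adjusted p = 0.0412). Its mean was 14.6 ± 5.88 CPM in WT, 26.3 ± 4.73 in the double null, 25.6 ± 4.59 in elav null and 22.4 ± 3.50 in WDd. Its level was thus not particular to the double null. The list's count of 1 higher gene in the double null moved under 11 of 22 alternatives.

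Genes for auxiliary subunits and partners of the channels were mostly not called. Of 7, dlg1 was lower in elav null (11.7% of all genes), dlg1 and qvr were lower in the double null (14.7%), and none was higher in either. In WDd none was called against WT by edgeR or DESeq2 or at an unadjusted p under 0.05 (4.59% of all genes). Of all genes only 0.135% were lower and 0.0641% higher in WDd in edgeR. qvr, which encodes the SLEEPLESS protein that regulates Shaker, stood at 81.3, 95.7 and 145.0 CPM in WT and at 9.69, 21.3 and 9.97 CPM in the double null (−2.97 ± 0.56, edgeR adjusted p = 0.00166). In elav null it stood at 58.1 and 75.4 CPM in replicates 1 and 2 and at 9.66 CPM in the library labelled replicate 3, and was not called (−1.17 ± 0.53, edgeR adjusted p = 0.156). The library labelled replicate 3 thus stood close to the lowest double null libraries. dlg1, the scaffold gene whose product clusters Shaker at the neuromuscular junction, fell from 295.7 ± 76.6 CPM to 164 ± 36.2 (elav null) and 147.7 ± 5.50 (double null) (edgeR adjusted p = 0.0102 and 0.00286). Hk, the beta subunit of Shaker, missed the threshold in elav null (−0.30 ± 0.27, edgeR adjusted p = 0.519) or in the double null (−0.69 ± 0.27, 0.0959). Slob and dysc, whose products bind Slo, had log2 fold changes of 0.14 ± 0.21 and −0.40 ± 0.30 in the double null (edgeR adjusted p = 0.738 and 0.419).

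**Figure D4:**
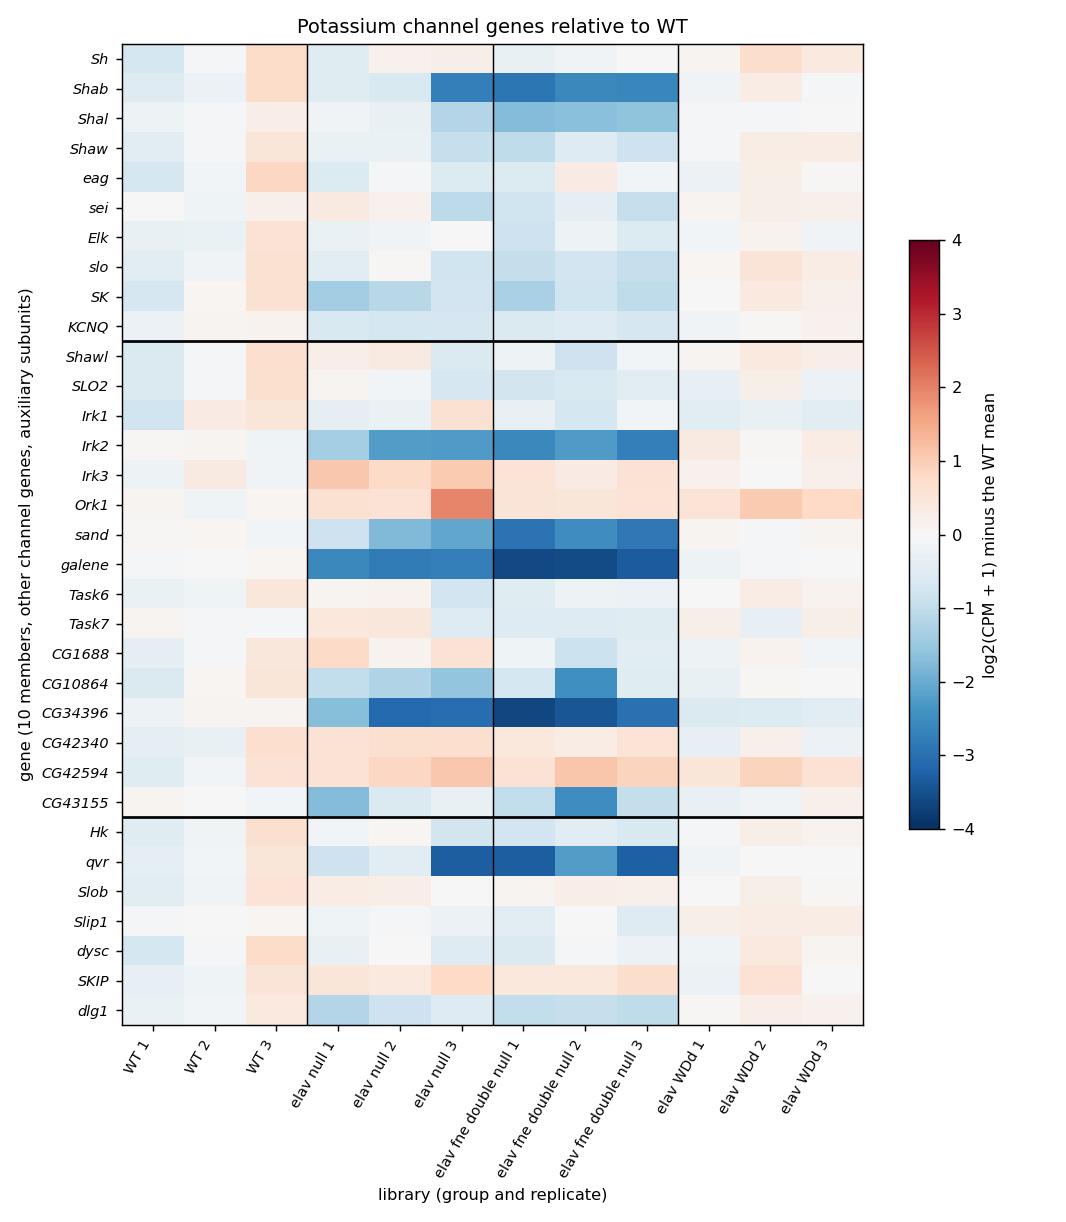
Log2(CPM + 1) minus the WT mean (colour) of the 10 genes, 16 other potassium channel genes and 7 auxiliary genes (rows) in the 12 libraries (columns). Blue is below and red above the WT mean. galene, sand, Irk2 and CG34396 are blue in elav null and the double null, Shab and qvr in the double null and the elav null library labelled replicate 3.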

How the data were processed

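Poly(A) RNA sequencing of 12 libraries was used, 3 in each of 4 groups taken from the labels. The authors deposited raw read counts per gene in 1 table for all libraries. The submitters' processing notes name Trim Galore 0.6.7, STAR 2.7.11a, featureCounts 2.0.8, DESeq2 1.40.2 and the dm6 build, without their roles, and strand and multi-mapping settings are not given in the sources used here. Of 17561 genes, all matched RefSeq names and 17524 had an exon length from the Ensembl BDGP6.54 annotation. Counts were filtered with filterByExpr (14031 genes kept), scaled by TMM and fitted with edgeR 4.0.16 in R 4.3.3, in 1 quasi-likelihood model of 4 groups with no covariate. P-values were two-sided and Benjamini-Hochberg adjusted over all genes, with a threshold of 0.05. Errors are SD over libraries or, for log2 fold changes, SE. The procedure was tested on simulated data, where most 2-fold changes were not called, so an uncalled gene may still differ. Alternatives were RLE factors, library totals, scaling to pan-neuronal genes, DESeq2 1.42.0, no filter, only the 6 libraries compared, a replicate block, robust dispersion, a 1.2-fold minimum, and libraries left out. All 10 channel genes were described, with every called gene of the other potassium channel, auxiliary and voltage-gated channel lists in the comparisons with WT, at most 6 a list and comparison. Hk, Slob and dysc are named besides, chosen after their values were seen. For each channel gene the 2 profiles most like it were taken by Pearson correlation of log2 CPM with a prior count of 2, among genes averaging 5 CPM or more. The members and lists were chosen with earlier results of these data known.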

Additional observations from a re-analysis of the deposited data

How the results depend on the processing

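Over the single genes, 1196 of 1290 alternative values kept their direction and side of the threshold, 45 lost a call, 10 gained one and 39 turned sign. Most of the 1290 belong to results without a call, which could not lose one, so the 45 are not a share of 1290. The elav null count of 2 lower genes was 0 with pan-neuronal scaling and 0 with only the 6 libraries compared, and 2 to 2 with single libraries left out. The double null count of 6 was 2 with pan-neuronal scaling and 3 to 7 with libraries left out. Over all genes the lower calls fell under pan-neuronal scaling too, from 1638 to 781 in elav null and from 2061 to 612 in the double null. The 1 gene lower in the double null than in elav null became 0 with RLE factors, library totals, pan-neuronal scaling, only the 6 libraries compared, the replicate block or a 1.2-fold minimum, 2 with DESeq2, and 0 to 3 with libraries left out. Of all genes, 0 to 726 were lower in the double null than in elav null over the alternatives, against 26 in the main fit. The 2 genes higher in WDd than in elav null became 1 with pan-neuronal scaling (2 to 3 with libraries left out), and the 6 higher than in the double null became 2 (4 to 7). Over all genes the higher calls fell from 1538 to 558 and from 2007 to 479 with pan-neuronal scaling. With libraries left out they ran from 957 to 1642 and from 1346 to 2504. The causes were not tested. No values of elav null were computed without the 3 libraries with the fewest genes, since 1 elav null library would remain. Signs that turned, all in uncalled genes, were with pan-neuronal scaling Sh in elav null (0.09) and the double null (0.32), eag in the double null (0.35), KCNQ in WDd (−0.06), Sh and Shaw between the null groups (0.22 and 0.11), Elk in WDd against elav null (−0.05) and eag in WDd against the double null (−0.42). sei in elav null was 0.03 with RLE factors, library totals and DESeq2 and 0.01 with no filter, and eag in WDd against the double null was −0.04 with RLE factors and DESeq2. With libraries left out, elav null values ran from −0.39 to 0.35 for Sh, −0.81 to 0.01 for eag, −0.32 to 0.30 for sei and −0.36 to 0.16 for Elk. In the double null they ran from −0.51 to 0.22 for Sh and −0.48 to 0.34 for eag. In WDd they ran from −0.29 to 0.39 for Shab, −0.15 to 0.09 for Shal, −0.03 to 0.43 for Shaw, −0.40 to 0.41 for eag, −0.25 to 0.27 for Elk, −0.16 to 0.46 for SK and −0.08 to 0.11 for KCNQ. Between the null groups they ran from −0.32 to 0 for Sh and −0.09 to 0.22 for SK, and in WDd from −0.12 to 0.50 for sei against elav null and −0.12 to 0.31 for eag against the double null. Replicate numbers did not pair the libraries: 18 same-numbered pairs correlated at −0.24 to 0.24, 1 of them over 0.1, and 3 of 12 libraries correlated best with their own number. The replicate block kept 2 and 6 lower genes in the comparisons with WT. Calls higher made up 68.4% of all calls in WDd against the double null with TMM, 56.3% with RLE factors and 32.4% with pan-neuronal scaling.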

Other observations

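Of 9 genes for voltage-gated channels of other ions and their subunits, 2 (elav null) and 6 (double null) were lower, and none was higher (against 11.7% and 14.7% of all genes lower). Ca-alpha1D, a calcium channel alpha subunit gene, stood at 114, 156 and 239 CPM in WT, and 147, 217 and 174 CPM in WDd. Its elav null levels were 98.9, 106 and 70.4 CPM, and its double null levels 57.7, 92.2 and 68.5 CPM. It was lower in both groups (−0.88 ± 0.27 and −1.22 ± 0.27, edgeR adjusted p = 0.039 and 0.00558). The beta subunit gene Ca-beta was also lower in both (−0.74 ± 0.23 and −1.14 ± 0.23, edgeR adjusted p = 0.0372 and 0.0026). Also lower in the double null were Ca-alpha1T (−1.24 ± 0.37), stj (−0.80 ± 0.26), tipE (−0.69 ± 0.22) and the cation channel gene Ih (−1.02 ± 0.30; edgeR adjusted p = 0.0281, 0.0418, 0.0362 and 0.0272). The sodium channel gene para, the calcium channel gene cac and the leak channel gene na were not called in either, with double null values of −0.09 ± 0.35, 0.36 ± 0.28 and −0.80 ± 0.34 (edgeR adjusted p = 0.909, 0.438 and 0.126). The elav null count of this list ranged from 0 to 3 and the double null count from 2 to 7 when single libraries were left out, and both were 0 when all libraries were scaled to the pan-neuronal genes. In WDd none of the 9 was called by edgeR or DESeq2 or at an unadjusted p under 0.05 (4.59% of all genes). Of all genes only 0.135% were lower and 0.0641% higher in WDd in edgeR.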
